A study of Homo sapiens with 4 samples.

Results

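The genes described here are the receptors EGFR, ERBB2 and ERBB3, the ligands AREG, EREG, HBEGF, TGFA, BTC and EPGN, and the receptor inhibitor ERRFI1. They were chosen by gene symbol as the EGFR family with its ligands, and are 10 of the 62077 rows of the FPKM table. The rule used no measured value, but earlier results of these data were known when it was set. All 10 were found on a primary chromosome. A further row with the symbol BTC, on a patch contig, was listed at 0 in all 4 libraries and was left out. A mean level of at least 1 FPKM over the 4 libraries was reached by 9 of the 10, EPGN being the exception, and by 15057 genes of the table.

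The cells were FaDu, an established epithelial line of hypopharyngeal squamous carcinoma. RNA-Seq was run on 1 library per condition: scrambled control in normoxia (N-scr), TET1 knockdown in normoxia (N-si), scrambled control in hypoxia (H-scr) and TET1 knockdown in hypoxia (H-si). Hypoxia was 1% O2 with 5% CO2 for 19 h. The comparison asks how hypoxia changed these genes, and how far that response depended on TET1, a dioxygenase that oxidises 5-methylcytosine in DNA. Per the study's methods, knockdown and control cells carried lentiviral short hairpin vectors and were used some days after infection. The methods list 1 hairpin sequence for TET1, and the study also calls its scrambled control a clone, so the knockdown libraries stand for 1 hairpin in 1 cell line. With 1 library per group no difference could be set against replicates, and p-values are not given. Differences between cultures cannot be told apart from those of the conditions, and fewer cells of a type cannot be told apart from less RNA per cell.

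EGFR, ERBB2 and ERBB3 are receptor tyrosine kinases of the cell surface that signal as pairs. EGFR binds the ligands listed above, ERBB2 has no known ligand of its own and serves as a partner, and ERBB3 binds neuregulins and has little kinase activity. The ligands are made as membrane proteins and released by metalloproteases such as ADAM17, after which the paired receptors signal through the RAS-ERK and PI3K-AKT pathways. ERRFI1 (MIG6) is induced by this signalling and binds the EGFR kinase domain to inhibit it, and in squamous epithelium EGFR and its ligands drive keratinocyte growth.

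The recovered depths ran from 22500000 to 24400000 reads per library. TET1 itself, the knockdown target, was 0.129 FPKM in N-scr against 0.0493 in N-si, and 0.331 in H-scr against 0.122 in H-si, on approximately 28, 11, 76 and 26 reads, so it was lower in both TET1-si libraries. Of 8 markers of squamous epithelium, 6 were at 1 FPKM or more in every library. The list summed to 3420 FPKM in N-scr against 1209 in N-si, and 4981 in H-scr against 2203 in H-si, most of it KRT5 in the scrambled libraries, at 2673 and 3993. CDH1 (179 against 267 FPKM in normoxia and 292 against 399 in hypoxia) and EPCAM were instead higher after TET1-si, and TP63 ran from 42.1 to 54.8. KRT14 and KRT6A, keratins of stratified epithelium with near-identical copies that can share reads, were at 42.1 FPKM or more in both scrambled libraries and at 1.41 or less in both TET1-si libraries, so the 2 knockdown states stood apart in this respect. Of 5 fibroblast markers only COL1A1 reached 1 FPKM, the list summing to 5.30 to 37.2 FPKM with COL1A2 listed at 0 throughout. Of 3 leukocyte markers only CD14 did so, the list summing to 1.44 to 3.47, with PTPRC and CD3E at 0.0101 or less. Of 3 endothelial markers 2 were analysed. The endothelial cadherin CDH5 was 8.75 FPKM in N-scr against 21.7 in N-si, and 16.0 in H-scr against 45.5 in H-si, and VWF ran from 0.160 to 2.94. The part of these shifts in the values below was not tested.

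Promoters were read from RefSeq on GRCh38.p14, a later build than the hg19 of the expression table. A promoter was found for 9 of the 10 genes, 11 in all since EGFR and TGFA have 2 starts each. The 250 bases before the start are shown for 4 genes whose levels the comparisons below turn on, because TET1 acts mainly on methylated cytosine in CG dinucleotides and these promoters differ in how many they hold. They are AREG (chr4:74444886-74445135, plus strand), EREG (chr4:74364895-74365144, plus strand), HBEGF (chr5:140346604-140346853, minus strand) and ERRFI1 (chr1:8026310-8026559, minus strand). Each is written 5′ to 3′ on the strand of its gene, with every CG in capitals.
AREG: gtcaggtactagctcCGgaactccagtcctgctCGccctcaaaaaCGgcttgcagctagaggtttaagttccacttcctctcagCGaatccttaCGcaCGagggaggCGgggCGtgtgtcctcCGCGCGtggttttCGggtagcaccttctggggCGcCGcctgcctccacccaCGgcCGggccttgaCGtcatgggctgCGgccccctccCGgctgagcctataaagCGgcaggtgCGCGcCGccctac
EREG: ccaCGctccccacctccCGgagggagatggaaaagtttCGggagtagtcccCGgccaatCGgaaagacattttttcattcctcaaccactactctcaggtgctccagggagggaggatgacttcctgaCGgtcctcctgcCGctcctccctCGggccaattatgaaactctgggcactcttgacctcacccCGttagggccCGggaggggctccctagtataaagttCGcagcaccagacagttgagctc
HBEGF: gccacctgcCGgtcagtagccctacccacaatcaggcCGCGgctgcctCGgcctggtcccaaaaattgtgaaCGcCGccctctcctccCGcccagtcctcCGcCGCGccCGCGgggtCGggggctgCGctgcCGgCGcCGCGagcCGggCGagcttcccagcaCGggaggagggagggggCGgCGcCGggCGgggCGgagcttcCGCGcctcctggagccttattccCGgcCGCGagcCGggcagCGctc
ERRFI1: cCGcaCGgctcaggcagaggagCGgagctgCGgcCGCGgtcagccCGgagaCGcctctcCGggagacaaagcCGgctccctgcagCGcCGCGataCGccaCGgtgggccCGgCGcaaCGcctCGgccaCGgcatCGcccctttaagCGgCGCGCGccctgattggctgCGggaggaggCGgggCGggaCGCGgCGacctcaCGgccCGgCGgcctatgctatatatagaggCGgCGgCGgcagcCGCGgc
The median of 35116 promoters of this length was 11 CG dinucleotides, with quartiles of 3 and 23. ERRFI1 had 39, more than 97.3% of promoters, and HBEGF had 33, more than 91.9%. AREG and ERBB2 had 23 each and EREG 11, at the median. The main EGFR start had 25 and the other start 1, the TGFA starts had 27 and 20, BTC had 8 and EPGN 3. The ligand promoters thus ran from 3 to 33. The core of the hypoxia response element (ACGTG or GCGTG, both strands) is found in 43.2% of all promoters. It occurred 2 times before AREG and 1 time each before EREG, BTC, EPGN and the second TGFA start, and had no match before EGFR, ERBB2, HBEGF or ERRFI1. The cAMP response element TGACGTCA, searched on both strands, is found in 1.65% of promoters and was matched before AREG alone among these genes. The AP-1 word TGAGTCA, on both strands and found in 4.203% of promoters, occurred 2 times before the second EGFR start. TATAAA on the strand of the gene, found in 6.80% of promoters, was matched before AREG, EREG and EPGN and 2 times before the second EGFR start. No matches overlapped one another. They describe the letters of the window only, and methylation was not measured in these libraries.

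The 3 receptors were expressed strongly and were higher in hypoxia in both knockdown states, though none by 2-fold. Their hypoxia responses were above those of 71.1% (ERBB2) to 81.1% (ERBB3) of all genes tested in scrambled cells. In TET1-si cells they were above those of 69.5% (ERBB3) to 85.1% (ERBB2). EGFR (ENSG00000146648, chromosome 7, 55086714 to 55324313, plus strand, hg19) had 64.0 FPKM in N-scr against 61.4 in N-si, and 103 in H-scr against 106 in H-si. The 2 hypoxia libraries stood above the 2 normoxia libraries, and knockdown moved the level by little in either oxygen state. Its hypoxia response on the log2(FPKM + 0.1) scale was 0.68 in scrambled cells against 0.78 in TET1-si cells, a 1.60-fold and a 1.72-fold difference. Its change after TET1-si came to -0.06 under normoxia against 0.04 under hypoxia, where median-of-ratios and upper-quartile scaling turned the latter to -0.078 and -0.012. From 14143 to 24255 approximate reads stood behind each value, so the 95% counting intervals of the log2 ratios (exact, without a pseudocount, covering counting error only) were narrow, for example 0.65 to 0.71 for the hypoxia response in scrambled cells.

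ERBB2 (ENSG00000141736, chromosome 17, 37844167 to 37886679, plus strand) measured 50.2 FPKM in N-scr against 57.0 in N-si, and 68.03 in H-scr against 106 in H-si. The knockdown library in hypoxia was the highest, and was 2.10-fold above the lowest, N-scr. The hypoxia response was 0.44 with the scrambled control and 0.89 with TET1-si, where the latter reached 1.02 after rescaling the columns to TPM. The change after TET1-si came to 0.18 under normoxia against 0.63 under hypoxia. ERBB3 (ENSG00000065361, chromosome 12, 56473641 to 56497289, plus strand) measured 27.7 FPKM in N-scr against 34.7 in N-si, and 46.2 in H-scr against 46.3 in H-si. The hypoxia libraries were again the higher pair and differed from each other by 0.01 on the log2 scale, with a counting interval of the log2 ratio from -0.05 to 0.06, a value that the same 2 scalings turned to -0.12 and -0.05. Its hypoxia response was 0.74 with the scrambled control and 0.42 with TET1-si.

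Summed over the 3 receptors, the level was 141.9 FPKM in N-scr against 153.1 in N-si, and 216.7 in H-scr against 257.7 in H-si. EGFR made up 45.1%, 40.1%, 47.3% and 41.04% of these sums and ERBB2 35.4%, 37.3%, 31.4% and 40.99%. In H-si, EGFR at 105.8 FPKM and ERBB2 at 105.6 were thus nearly equal per length. The fourth receptor, ERBB4, which also binds neuregulins, was low, with 0.0219 FPKM in N-scr against 0.0441 in N-si, and 0.113 in H-scr against 0.619 in H-si.

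**Figure D1:**
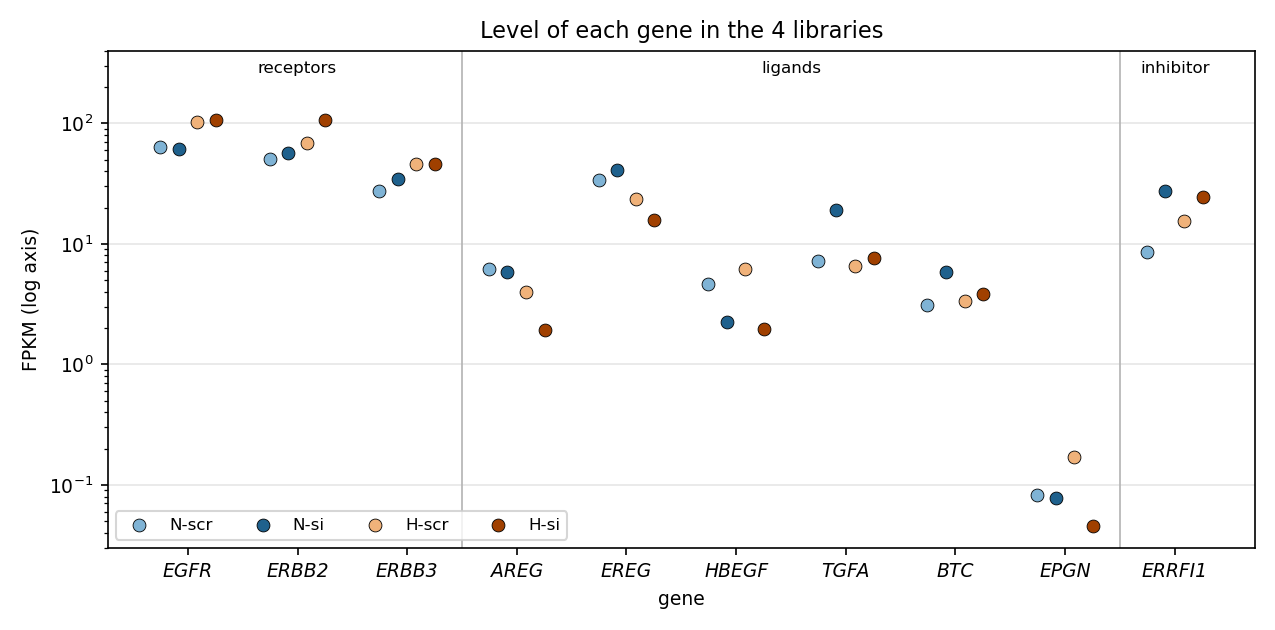
Level of the 10 genes in the 4 libraries, in FPKM on a log axis, with 1 point per library and no error bar since each group has 1 library. The receptors lie between 27.7 and 106 FPKM with hypoxia libraries on top, the ligands spread from EPGN below 1 to EREG at up to 41.2, and ERRFI1 is lowest in N-scr.

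The ligands did not move together. Of the 5 that passed the filter on the mean level, 3 were at least 2-fold lower in hypoxia in TET1-si cells (AREG, EREG and TGFA) and none was in scrambled cells. Among all genes tested, 8.66% were at least 2-fold lower in hypoxia in TET1-si cells and 4.53% in scrambled cells. No member was at least 2-fold higher in hypoxia in either state, where the shares of all genes were 12.5% in TET1-si cells and 12.9% in scrambled cells. The median hypoxia response of these ligands was -0.14 in scrambled cells while it was -1.31 in TET1-si cells, beside 0.05 and 0.03 for all genes. The median of the 3 receptors was 0.68 and 0.78.

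EREG (epiregulin, ENSG00000124882, chromosome 4, 75230860 to 75254468, plus strand), which binds EGFR and ERBB4, was the most abundant ligand in every library. It had 33.7 FPKM in N-scr against 41.2 in N-si, and 23.6 in H-scr against 15.9 in H-si, on 1570 to 4431 approximate reads. Both hypoxia libraries were below both normoxia libraries. In TET1-si cells EREG fell in hypoxia by 1.37 on the log2 scale, or 2.60-fold, with a counting interval of the log2 ratio from -1.46 to -1.30. In scrambled cells its hypoxia response was -0.51. After TET1-si it was 0.29 higher under normoxia and had a change of -0.57 under hypoxia, so the sign of the knockdown change differed between oxygen states.

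AREG (amphiregulin, ENSG00000109321, chromosome 4, 75310851 to 75320726, plus strand), an EGFR ligand of epithelial cells, had 6.22 FPKM in N-scr against 5.87 in N-si, and 3.98 in H-scr against 1.94 in H-si. The normoxia libraries did not differ beyond counting error, the interval of their log2 ratio running from -0.43 to 0.25, and H-si was the lowest. In hypoxia AREG fell by 1.55 on the log2 scale in TET1-si cells, or 3.03-fold, and its response was -0.63 in scrambled cells. After TET1-si under hypoxia it fell by 1.00, with a counting interval of the log2 ratio from -1.56 to -0.50 on approximately 99 and 45 reads. The table also lists a near-identical copy, AREGB (chromosome 4, 75480629 to 75490486), at 0 in all 4 libraries. Of 1135 windows of 100 bases along the longest AREG transcript, 1035 (91.2%) also occur in AREGB, so the level of AREG depends on how shared reads were assigned and is uncertain.

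TGFA (transforming growth factor alpha, ENSG00000163235, chromosome 2, 70674412 to 70781325, minus strand), an EGFR ligand made by many epithelia and carcinomas, had 7.19 FPKM in N-scr against 19.0 in N-si, and 6.53 in H-scr against 7.58 in H-si. N-si stood alone above the other 3 libraries. TGFA therefore rose after TET1-si under normoxia, by 1.39 on the log2 scale or 2.64-fold, and fell in hypoxia in TET1-si cells, by 1.31 or 2.504-fold, both comparisons resting on the same N-si library. Its hypoxia response in scrambled cells was -0.14, with a counting interval of the log2 ratio from -0.30 to 0.02, and its change after TET1-si under hypoxia was 0.21.

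HBEGF (heparin-binding EGF-like growth factor, ENSG00000113070, chromosome 5, 139712428 to 139726216, minus strand), which binds EGFR and ERBB4, had 4.64 FPKM in N-scr against 2.25 in N-si, and 6.19 in H-scr against 1.95 in H-si. Both TET1-si libraries were below both scrambled libraries. HBEGF fell after TET1-si, with changes of -1.02 under normoxia and -1.62 under hypoxia, a 2.07-fold and a 3.18-fold difference, with counting intervals of the log2 ratio from -1.38 to -0.71 and from -2.02 to -1.33. It was the one member past 2-fold the same way in both oxygen states. Its hypoxia response was 0.41 in scrambled cells. In TET1-si cells it was -0.20, where the counting interval of -0.62 to 0.19 included 0 on approximately 118 and 94 reads, so no change was detectable at this depth.

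BTC (betacellulin, ENSG00000174808, chromosome 4, 75669969 to 75719896, minus strand), which binds EGFR and ERBB4, had 3.11 FPKM in N-scr against 5.85 in N-si, and 3.33 in H-scr against 3.82 in H-si. N-si was again the highest library, as for TGFA and EREG. The change after TET1-si came to 0.89 under normoxia against 0.19 under hypoxia. Its hypoxia response was 0.10 with the scrambled control and -0.60 with TET1-si, none of the 4 being past 2-fold. EPGN (epigen, ENSG00000182585, chromosome 4, 75174190 to 75181024, plus strand), a low-affinity EGFR ligand, was low. It had 0.0831 FPKM in N-scr against 0.0776 in N-si, and 0.1698 in H-scr against 0.0452 in H-si, on approximately 5, 5, 10 and 3 reads, and the counting intervals of all 4 comparisons included 0.

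**Figure D2:**
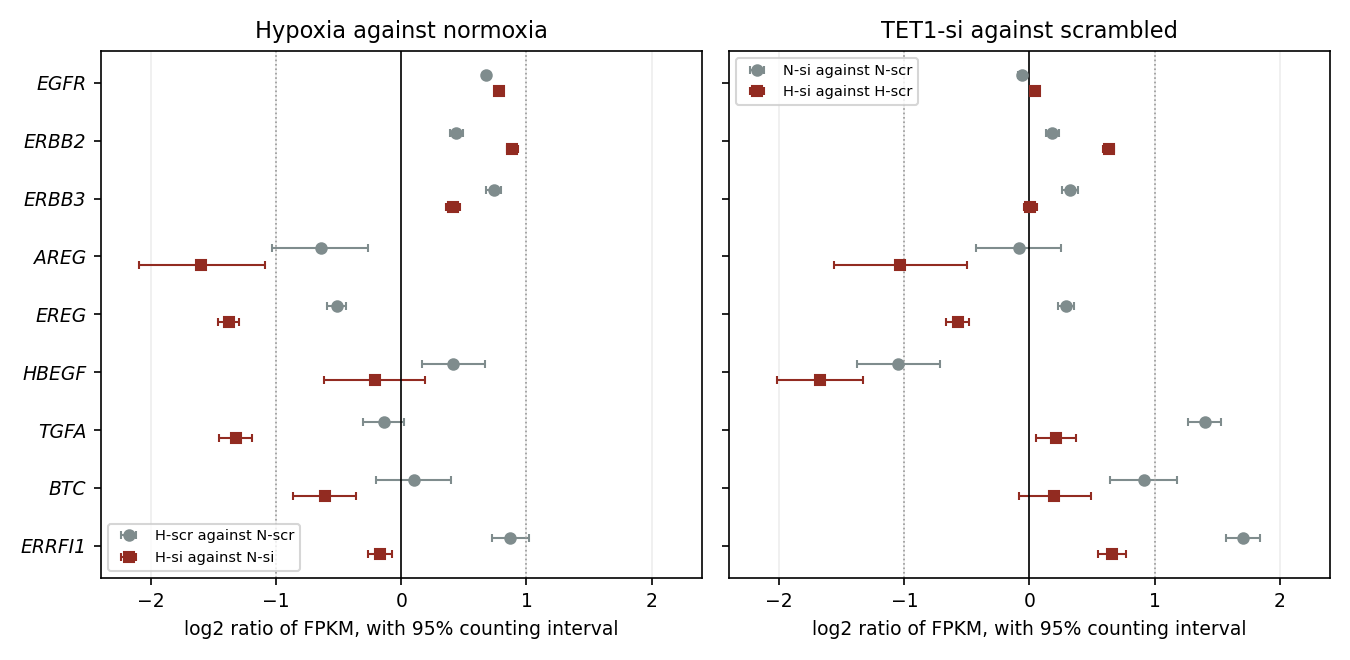
Log2 ratio of FPKM, without a pseudocount, for the 9 genes that passed the filter, hypoxia against normoxia in the left panel and TET1-si against scrambled in the right one. Bars are 95% counting intervals, which do not cover differences between cultures, and dotted lines mark 2-fold: AREG, EREG and TGFA pass the lower line for H-si against N-si, HBEGF for both comparisons of TET1-si with scrambled, AREG for H-si against H-scr, and TGFA and ERRFI1 the upper line for N-si against N-scr.

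Summed over the 6 ligands, the level was 55.0 FPKM in N-scr against 74.3 in N-si, and 43.8 in H-scr against 31.2 in H-si. The order of the libraries was thus unlike that of the summed receptors, where H-si was the highest. EREG made up 61.3% of the ligand sum in N-scr and 55.5% in N-si, against 53.9% in H-scr and 50.8% in H-si. TGFA made up 25.6% in N-si and 24.3% in H-si against 13.1% in N-scr and 14.9% in H-scr. HBEGF was 8.45% and 14.1% in the scrambled libraries, in normoxia and hypoxia, and 3.03% and 6.24% in the TET1-si libraries.

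**Figure D3:**
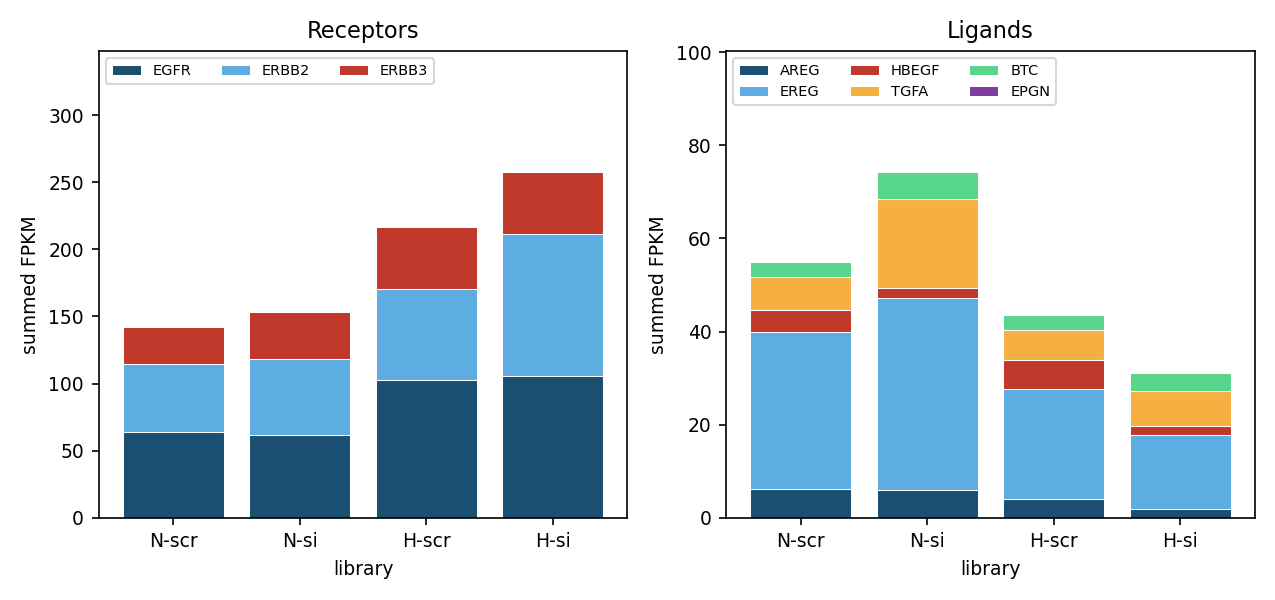
Summed FPKM of the 3 receptors (left) and 6 ligands (right) in each library, stacked by gene, with no error bar since each group has 1 library. Receptor sums run from 141.9 in N-scr to 257.7 in H-si, while ligand sums are highest in N-si at 74.3 and lowest in H-si at 31.2, and EREG is the largest ligand block throughout.

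ERRFI1 (ENSG00000116285, chromosome 1, 8064464 to 8086368, minus strand), the receptor inhibitor, had 8.49 FPKM in N-scr against 27.6 in N-si, and 15.5 in H-scr against 24.6 in H-si. N-scr was the lowest library, and both TET1-si libraries were above both scrambled libraries. ERRFI1 rose after TET1-si under normoxia by 1.69 on the log2 scale, or 3.26-fold, with a counting interval of the log2 ratio from 1.57 to 1.84. Under hypoxia the change was 0.66, or 1.58-fold. Its hypoxia response was 0.86 with the scrambled control and -0.17 with TET1-si. The value after TET1-si under normoxia was above that of 95.6% of all genes tested.

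Over the 9 genes past the filter, 2 were at least 2-fold higher (TGFA and ERRFI1) and 1 lower (HBEGF) after TET1-si under normoxia, where 12.1% and 5.56% of all genes were called in these directions. Under hypoxia 2 members were at least 2-fold lower after TET1-si (AREG and HBEGF), against 8.35% of all genes, and none was higher, against 12.0%. The median change of the members was 0.29 under normoxia and 0.04 under hypoxia, and that of all genes 0.15 and 0.10. The falls of HBEGF under normoxia and of AREG under hypoxia lay just past the threshold, and both came to less than 2-fold with a pseudocount of 1 and after rescaling to TPM.

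The hypoxia responses of the 2 knockdown states were next compared gene by gene. The difference, TET1-si less scrambled, was -1.18 for TGFA, with an approximate counting interval of the log2 difference from -1.39 to -0.98, and -1.03 for ERRFI1, from -1.22 to -0.87. These 2 of the 9 were at -1 or lower, as were 7.86% of all genes, and no member was at 1 or higher, where 4.87% of all genes were. ERRFI1 came to -0.965 with a pseudocount of 1, -0.989 with median-of-ratios and -0.971 with upper-quartile scaling, which left TGFA alone at -1 or lower. All 5 ligands past the filter had a negative difference, with -0.92 for AREG, -0.86 for EREG, -0.70 for BTC and -0.61 for HBEGF beside TGFA. Of all genes tested, 6.03% were below TGFA and 16.1% below HBEGF, the lowest and highest of these ligands. EPGN, under the filter, had -0.85. EGF, also under it, went the other way, with hypoxia responses of -1.02 in scrambled and 1.60 in TET1-si cells. Among the receptors the difference was 0.45 for ERBB2, 0.10 for EGFR and -0.32 for ERBB3. Below ERBB3 were 29.4% of all genes tested and below EGFR 64.5%. The share of all genes with a negative difference thus lay between these values and was not counted. All these differences share the same 4 libraries, so they are not separate observations of the conditions.

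To pick genes that depend on TET1 in hypoxia, the study set 3 inequalities on FPKM. The level in H-scr had to be over 2 times that in H-si and over that in N-scr, and N-si could not exceed N-scr. Without a filter these held for 2687 (4.33%) of the 62077 rows and for 2 of the 10 genes, HBEGF and EPGN. This count of rows was larger than the number of genes that the study reports, so its selection was not reproduced. Whether HBEGF or EPGN is among the genes selected by the study was not checked. A row not detected in H-scr cannot meet the inequalities, and only 15057 genes of the table passed the filter on the mean level. Of the 10 genes 9 passed it, so the 2 shares are not like for like. The share among genes past the filter was not computed. HBEGF had an H-scr level 3.18 times that of H-si, 1.33 times that of N-scr, and an N-scr level 2.07 times that of N-si. EPGN met the inequalities on 3 to 10 reads per library. AREG, with H-scr 2.05 times H-si, did not meet them because its H-scr level was 0.640 times that of N-scr.

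Earlier results of these data show changes after TET1-si that run along the chromosomes, so each gene was set beside the 25 genes tested on either side of it. HBEGF was lower after TET1-si than all 50 neighbours under normoxia and than 49 of 50 under hypoxia, where the neighbours had medians of 0.16 and 0.09. ERRFI1 was above 46 of 50 neighbours under normoxia and 45 of 50 under hypoxia, and TGFA was above 48 of 50 under normoxia. HBEGF and ERRFI1 thus lay near the ends of the range of their neighbours in both oxygen states. TGFA did so under normoxia alone, being above 23 of 50 neighbours under hypoxia. EGFR lay in a stretch of chromosome 7 with lower levels after TET1-si: its neighbours had medians of -0.44 under normoxia and -0.65 under hypoxia, its own changes of -0.06 and 0.04 being above 38 of 50 in each case. The window of these neighbours ran from 44646171 to 64535091. The neighbours of ERBB3 on chromosome 12, in a much shorter window from 55804263 to 56864763, were also lower, with medians of -0.32 and -0.61. ERBB3 itself, at 0.32 and 0.01, was above 45 of 50 under normoxia and 38 of 50 under hypoxia. AREG, EREG, BTC and EPGN lie in 1 cluster on chromosome 4, and their neighbour windows largely overlap. After TET1-si, BTC was above 45 of 50 neighbours under normoxia and 35 of 50 under hypoxia. In the same comparisons AREG was above 16 and 7, EREG above 32 and 14, and EPGN above 21 and 10. In hypoxia in TET1-si cells, 1 of 50 neighbours was below AREG and 4 of 50 below EREG, around a median of -0.21.

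**Figure D4:**
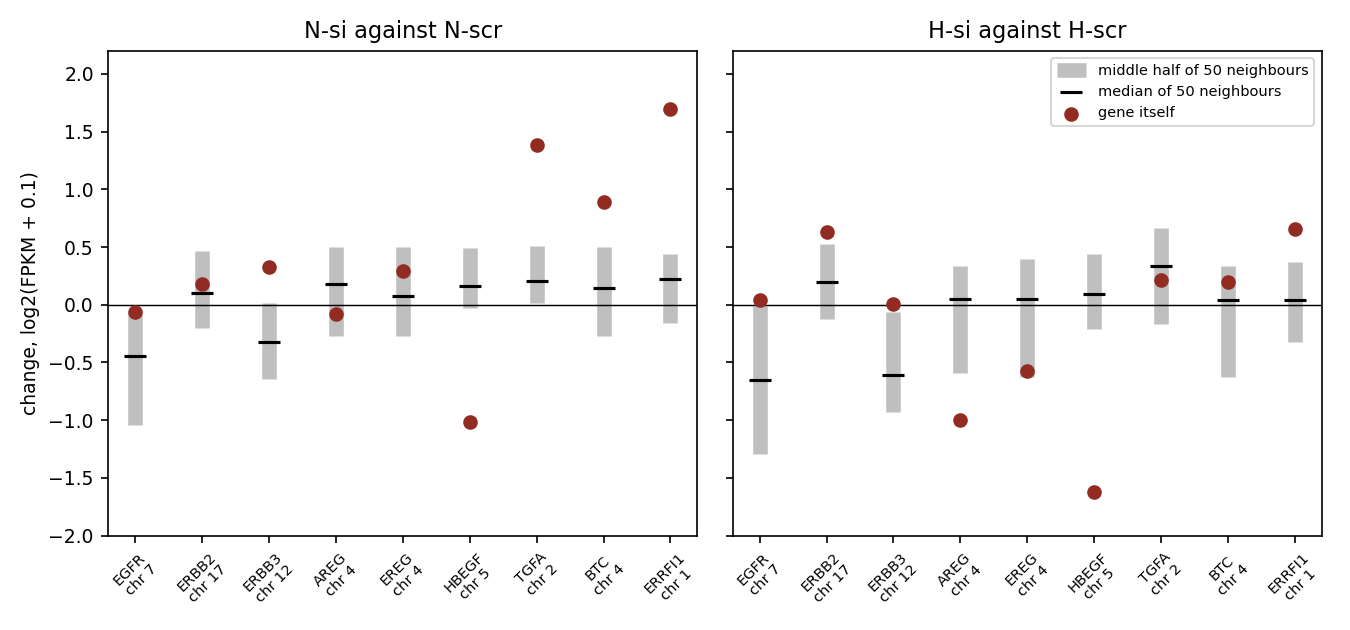
Change after TET1-si on the log2(FPKM + 0.1) scale of 9 genes (red points) beside the 50 nearest tested genes on the chromosome (bar, middle quartiles, and line, median), under normoxia (left) and hypoxia (right). HBEGF lies below all 50 neighbours in the left panel and below 49 in the right, and the neighbours of EGFR have medians of -0.44 and -0.65.

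The profiles most like each member's were sought among 10786 genes with a mean of at least 5 FPKM, by the root mean square distance between log2 profiles centred on their own mean over the 4 libraries. This was done for the 6 members that reach that mean. The distance rests on 4 points and describes these libraries only. The nearest to EGFR were TRIM52 (distance 0.0291), LRP11 and TBC1D25, against a median distance of 0.525 over all genes. For ERBB2 they were DOCK6 (0.0289), ABCD4 and SLC9A8, and for ERBB3 CRHR1-IT1 (0.0117), ZCCHC6 and CDK3. EREG was closest to EPB41L2 (0.0302), DNAH14 and TYRO3, and ERRFI1 to RAB11FIP3 (0.0472). TGFA had the most distant nearest gene, SLC7A11 (0.127), followed by NDUFB5 and RSRC1. No member was among the 3 nearest genes of another.

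The other ligands of the family gave 3 genes past the filter among EGF and the 4 neuregulins. NRG1, a ligand of ERBB3 and ERBB4, had 5.72 FPKM in N-scr against 5.53 in N-si, and 6.81 in H-scr against 2.44 in H-si, so that H-si was the low library, as for AREG. Its change was -1.44 after TET1-si under hypoxia and -1.15 for hypoxia in TET1-si cells, the latter -0.92 with a pseudocount of 1. NRG4, an ERBB4 ligand, had 9.17, 8.71, 15.7 and 15.5 FPKM in the same order of libraries, with hypoxia responses of 0.77 and 0.82 in scrambled and TET1-si cells. NRG2 had 0.445, 1.67, 1.27 and 1.40 FPKM, and N-scr was the low library, as for ERRFI1. It rose in hypoxia with the scrambled control, by 1.33, and after TET1-si under normoxia, by 1.70, values that a pseudocount of 1 brought to 0.65 and 0.88. EGF itself was at 0.917 FPKM in N-scr against 0.0717 in N-si, and 0.401 in H-scr against 0.421 in H-si, and NRG3 at 0.0152 or less.

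Genes that govern release of the ligands came next. Of 8 shedding genes, TIMP3 rose and ADAM12 fell by at least 2-fold in hypoxia with the scrambled control, and TIMP3 and RHBDF1 rose in TET1-si cells. Among all genes 12.9% rose and 4.53% fell by 2-fold in the first comparison and 12.5% rose in the second. TIMP3, an inhibitor of ADAM17, had 1.20 FPKM in N-scr against 0.751 in N-si, and 2.82 in H-scr against 4.53 in H-si, and rose in hypoxia by 1.17 in scrambled and 2.44 in TET1-si cells, the former 0.798 with a pseudocount of 1. That setting also took ADAM12 after TET1-si under hypoxia from 1.40 to 0.70. ADAM17, the main protease for several of these ligands, had 11.4, 16.6, 16.5 and 24.8 FPKM in the same order, with no change past 2-fold. After TET1-si no shedding gene was past 2-fold under normoxia, and 1, ADAM12, was higher under hypoxia, against 12.0% of all genes. The adaptors and kinases of the cascade numbered 25, with medians from 0.01 to 0.13 in the 4 comparisons. SOS2 was the one gene past 2-fold in hypoxia in scrambled cells (1.06, or 0.93 with a pseudocount of 1) and SOS1 in TET1-si cells (1.33). After TET1-si under normoxia SOS2 was again higher (1.27) and AKT2 lower, and under hypoxia AKT2 alone was past 2-fold. For the 25 genes these counts of 1 or none in each direction stand beside 12.0% to 12.9% of all genes higher and 4.53% to 8.66% lower. AKT2, a kinase downstream of PI3K, had 146.1 FPKM in N-scr against 67.6 in N-si, and 170.5 in H-scr against 85.1 in H-si, with changes after TET1-si of -1.11 under normoxia and -1.002 under hypoxia. The latter was under 2-fold with a pseudocount of 1 (-0.995) and after rescaling to TPM (-0.935). ADAM12, RHBDF1, SOS1 and SOS2 were named after their values were seen.

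Of 12 genes listed as regulators that restrain the receptors, 1 was higher (CBLB) and 1 lower (UBASH3B) in hypoxia in each knockdown state. For all genes the shares were 12.9% higher and 4.53% lower with the scrambled control and 12.5% and 8.66% with TET1-si. CBLB, a ubiquitin ligase that targets EGFR, had 3.14 FPKM in N-scr against 3.63 in N-si, and 6.50 in H-scr against 11.5 in H-si, its response of 1.02 in scrambled cells falling under 2-fold with a pseudocount of 1 (0.86) and median-of-ratios scaling (0.98). UBASH3B, a phosphatase that binds CBL and opposes it, and so acts against the restraint the list is named for, had 3.29, 2.67, 1.11 and 0.712 FPKM in the same order. LRIG1, a membrane protein that promotes the loss of EGFR family receptors, had 4.06 FPKM in N-scr against 0.947 in N-si, and 5.31 in H-scr against 1.30 in H-si. It fell after TET1-si, with changes of -1.99 under normoxia and -1.95 under hypoxia. LRIG3, named after its value was seen, was the other gene of this list at least 2-fold lower after TET1-si under normoxia, with a change of -1.22, and LRIG1 alone was so under hypoxia. The shares of all genes lower by 2-fold were 5.56% and 8.35%. The list as a whole had median changes after TET1-si of -0.28 and -0.39, against 0.15 and 0.10 for all genes.

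Genes that ERK signalling is known to induce were followed as a list called ERK output. ERK activity was not measured, so the list describes transcripts only. Of 15 past the filter, 5 were at least 2-fold lower in hypoxia in TET1-si cells (DUSP4, DUSP6, ETV4, ETV5 and FOSL1), against 8.66% of all genes, and none was higher. In scrambled cells 3 were higher (DUSP5, DUSP6 and FOS), against 12.9% of all genes, and 1 lower (FOSL1), against 4.53%. After TET1-si under normoxia 4 were higher (DUSP5, ETV4, ETV5 and FOS), against 12.1%, and 1 lower (DUSP4), against 5.56%. After TET1-si under hypoxia 5 were lower (DUSP4, DUSP6, FOSL1, PHLDA1 and IER3), against 8.35%, and none higher, against 12.0%. The 4 comparisons share the same 4 libraries, so these counts are not separate observations. ETV4 and ETV5, for example, were past 2-fold in both comparisons that use N-si. With a pseudocount of 1, DUSP4 and DUSP6 were no longer past 2-fold for hypoxia in TET1-si cells, at -0.66 and -0.96. FOSL1 in scrambled cells (-0.995) and DUSP4 under normoxia (-0.986) also came to less than 2-fold. TPM and upper-quartile scaling did the same to DUSP6 (-0.956 and -0.982) and FOSL1 (-0.893 and -0.967) in these comparisons, but not to DUSP4. The list median for hypoxia was 0.05 in scrambled cells against -0.77 in TET1-si cells, and that for TET1-si came to 0.55 under normoxia against -0.71 under hypoxia. Beside these stand all-gene medians of 0.05 and 0.03 for hypoxia and of 0.15 and 0.10 for TET1-si. FOSL1, an AP-1 subunit, had 88.7 FPKM in N-scr against 106 in N-si, and 43.97 in H-scr against 18.1 in H-si, so that its libraries kept the order of EREG. DUSP4, a phosphatase of ERK, had 4.33, 1.69, 3.58 and 0.6999 FPKM, with changes after TET1-si of -1.31 under normoxia and -2.2004 under hypoxia. The ERK target ETV5, chosen after its values were seen like the other genes of this list bar FOSL1 and DUSP4, had 2.93 FPKM in N-scr against 16.1 in N-si, and 5.51 in H-scr against 3.06 in H-si. N-si stood alone, as for TGFA. DUSP6, another ERK phosphatase, had 7.004, 10.3, 19.3 and 4.80 FPKM, and H-si was the lowest. CCND1, the most abundant gene of the list, had 242, 467, 175 and 323 FPKM in the same order. It was higher after TET1-si in both oxygen states, by 0.95 under normoxia and 0.88 under hypoxia, each less than 2-fold.

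**Figure D5:**
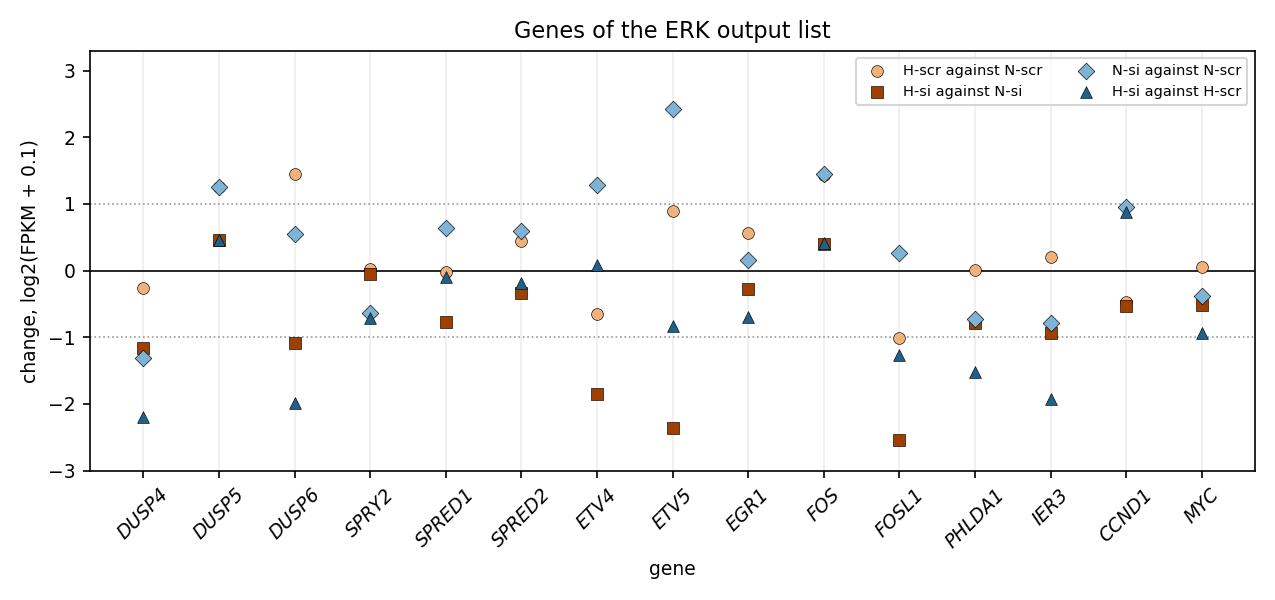
Change on the log2(FPKM + 0.1) scale of the 15 ERK output genes that passed the filter, with 1 marker for each of the 4 comparisons, markers overlapping where values are close, and dotted lines at 2-fold. For H-si against N-si 5 genes lie below the lower line and none above the upper one, and for N-si against N-scr 4 lie above and 1 below.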

How the data were processed

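The values were FPKM per gene, deposited by the authors with 1 column per library, made from 100 bp reads with TopHat and Cufflinks on hg19 with Ensembl annotation. Tool versions are not given in the sources used here. The labels call the reads single end, the methods paired end. Strand was not stated, so a gene and its antisense partner cannot be told apart. FPKM are relative to all mapped reads, so a few abundant genes can shift every other value of a library.

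Groups came from the labels. Changes were computed as log2(FPKM + 0.1), which understates low genes, for genes that reached a mean of 1 FPKM and had 1 row per gene ID (111 IDs on 232 rows left out). Past 2-fold means a change of 1 or more. Reads were recovered from 6332 one-exon genes: 97.6% to 97.9% of low values came out whole within 0.05 reads. Approximate reads per gene are FPKM times depth times the canonical transcript length in GENCODE v44lift37 less 212 bp. Intervals are exact (Clopper-Pearson, 95%) for a ratio and approximate for a difference of responses, where every library had at least 10 reads. No count test was run, as no group has a replicate. The search was tested on simulated data.

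The members and lists were chosen with earlier results of these data known. Named were all members, measured relatives, list genes past 2-fold the same way in both comparisons of a kind, and the 3 genes nearest in profile; others are marked as chosen after their values were seen. Alternatives were the pseudocount, the scaling (TPM, median-of-ratios, upper-quartile), the filter and the fold. Python 3.11.15, pandas 2.3.3, NumPy 2.4.6, SciPy 1.17.1 and matplotlib 3.10.9 were used. Other data of the series were not used here. For ERRFI1 the nearest gene alone is given, and the rest is not reported here.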

Additional observations from a re-analysis of the deposited data

Results flagged for a closer look

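Changes of opposite sign in both oxygen states or both knockdown states were singled out where the gene passed the filter and neither counting interval included 0. This held in 3 cases. With 1 library per group the difference was not tested. EREG changed by 0.29 on the log2(FPKM + 0.1) scale after TET1-si under normoxia and by -0.57 under hypoxia. The former came to 0.12 with median-of-ratios and 0.17 with upper-quartile scaling. ERRFI1 had a hypoxia response of 0.86 in scrambled cells and of -0.17 in TET1-si cells. The latter came nearer to no change, at -0.034 after rescaling to TPM and -0.064 with upper-quartile scaling. EGFR changed by -0.060 after TET1-si under normoxia and by 0.044 under hypoxia, and the latter value turned to -0.08 under median-of-ratios and -0.01 under upper-quartile scaling.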

How the results depend on the processing

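No paired analysis was possible because each group has 1 library. Of 250 values of single members under the alternatives, 246 had the sign of the main value and 42 lay outside its counting interval. The remaining 208 include those of the EPGN difference of responses, for which no interval was computed. The 4 values of another sign were the changes after TET1-si under hypoxia of EGFR and ERBB3, which became -0.08 and -0.12 with median-of-ratios scaling and -0.01 and -0.05 with upper-quartile scaling. A pseudocount of 1 left 0 members at least 2-fold lower after TET1-si under normoxia and 1 under hypoxia. The shares of all genes at that setting were 3.85% and 6.61%. Rescaling to TPM gave the same counts of 0 and 1, beside 5.13% and 7.56% of all genes. It made 1 member (ERBB2) 2-fold higher in hypoxia in TET1-si cells, beside 15.6% of all genes. The median change of the members moved to 0.53 for hypoxia in scrambled cells, -0.069 for hypoxia in TET1-si cells and 0.11 after TET1-si under hypoxia. Median-of-ratios scaling brought the median after TET1-si to 0.12 under normoxia and -0.078 under hypoxia, and upper-quartile scaling to 0.17 under normoxia. The 6 members with a mean of at least 5 FPKM had medians of 0.56 and 0.12 for hypoxia in scrambled and TET1-si cells and of 0.13 after TET1-si under hypoxia, and 0 of them were 2-fold lower after TET1-si in either oxygen state, since AREG and HBEGF are not among them. Of all genes with that mean, 4.03% were lower under normoxia and 7.32% under hypoxia. At 1.5-fold, 3 members were higher and 1 lower for hypoxia with the scrambled control, beside 23.2% and 13.7% of all genes. For hypoxia with TET1-si 2 were higher, beside 23.7%, and after TET1-si under hypoxia 2 were higher, beside 24.3%. For hypoxia the median over all genes was 0.05 (scrambled) and 0.03 (TET1-si) as deposited and 0.16 for both after TPM, and median-of-ratios scaling moved that after TET1-si under normoxia from 0.15 to -0.0043. Depth limits EPGN (3 to 10 reads) and, less so, AREG and HBEGF. No alternative bears on differences between cultures.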
